A study of Mus musculus with 18 samples.

Results

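The ion channel subunit genes described here are the genes of voltage-gated and related potassium, calcium and sodium channels in 18 RNA-seq libraries of mouse tumour cells. They were taken by symbol, as every gene named for a potassium channel subunit (Kcn), a calcium channel subunit (Cacna, Cacnb or Cacng) or a numbered sodium channel subunit (Scn with an a or b). The pattern matched 73 rows of the table. The antisense genes Kcnmb4os2 and Kcnq1ot1 were left out, which gave 71 members among 18909 genes. Of these, 44 code for potassium, 18 for calcium and 9 for sodium channel subunits, and they lie on 18 chromosomes.

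E0771 is a mouse mammary tumour line and B16F10 a mouse melanoma line, both from C57BL6 mice. Each line carried MRTFA, MRTFB or the vector alone (control) in the doxycycline-inducible pRetrox system, with 3 libraries in each of the 6 groups. Every group, the controls included, received doxycycline at 500 ng/mL for 48 h, so the drug itself is common to all comparisons. The labels do not say which species the transgenes come from, whether a line is 1 clone, or whether replicates were separate cultures, so p-values measure the spread between these libraries, which may be technical.

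The MRTF proteins bind monomeric actin, which holds them in the cytoplasm. Once released, they join serum response factor in the nucleus and switch on cytoskeletal and smooth muscle genes through a DNA element called the CArG box. Ion channels let potassium, calcium or sodium cross the membrane. Their alpha subunits form the pore, and auxiliary subunits set gating, trafficking or sensitivity. In smooth muscle, calcium channels of the alpha1 family start contraction. The BK channel, a large-conductance potassium channel opened by calcium and voltage, opposes it. Kcnmb1 codes for the smooth muscle beta subunit of BK, which raises its sensitivity to calcium.

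The promoters of the 3 members called higher with MRTFA in both lines, by the filter and test given below, are shown first, since the results turn on these genes. The sequences are RefSeq windows of GRCm38.p6 from 250 bases before to 50 bases after an annotated start, read 5′ to 3′ on the gene's strand. Kcnmb1 is at chr11:33962763-33963062 on the + strand and holds none of the motifs searched. Kcnip3 has 3 windows, of which the one at chr2:127522045-127522344 on the − strand is shown. Its capitals mark a CArG box with one G or C in its core, starting 9 bases into the transcript. Cacna1s is at chr1:136052561-136052860 on the + strand, and its capitals mark GGAATG, the reverse complement of CATTCC, starting at base −130 from the start.
Kcnmb1: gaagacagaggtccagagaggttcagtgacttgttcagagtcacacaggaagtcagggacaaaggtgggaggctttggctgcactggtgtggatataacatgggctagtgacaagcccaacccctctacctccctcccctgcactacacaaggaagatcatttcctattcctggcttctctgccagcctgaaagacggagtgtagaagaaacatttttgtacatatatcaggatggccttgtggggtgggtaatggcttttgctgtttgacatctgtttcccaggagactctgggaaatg
Kcnip3: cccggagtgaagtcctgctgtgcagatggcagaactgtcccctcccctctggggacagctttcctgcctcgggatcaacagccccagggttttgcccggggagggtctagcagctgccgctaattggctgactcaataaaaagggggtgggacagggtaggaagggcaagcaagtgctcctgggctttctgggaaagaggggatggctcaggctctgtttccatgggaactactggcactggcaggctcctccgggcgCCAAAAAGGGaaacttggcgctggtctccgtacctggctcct
Cacna1s: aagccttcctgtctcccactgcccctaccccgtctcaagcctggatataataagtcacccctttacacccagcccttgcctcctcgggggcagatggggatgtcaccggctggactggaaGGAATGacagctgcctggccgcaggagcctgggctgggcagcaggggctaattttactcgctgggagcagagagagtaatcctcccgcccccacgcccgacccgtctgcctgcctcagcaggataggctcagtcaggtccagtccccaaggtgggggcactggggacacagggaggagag

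Values are reads per gene divided by the library's size factor, called scaled reads below. Libraries held 27607055 to 37116655 reads, and the limit of 3 reads that a count of 0 sets equals 0.0808 to 0.109 CPM, a read count scaled to library size. Intervals on read ratios and limits from counts of 0 cover counting error only. The transgene's own gene showed 12160 to 16557 scaled reads of Mkl1 (Mrtfa) in E0771 MRTFA libraries, against 1124 to 1514 in E0771 control libraries. In B16F10, Mkl1 ranged over 902 to 1398 in MRTFA libraries and 949.7 to 1109 in control libraries, and these overlapped. Mkl2 (Mrtfb) had 2056 to 2211 scaled reads in E0771 MRTFB libraries, against 1235 to 1446 in control libraries, and 1738 to 1964 in B16F10 MRTFB libraries, against 1290 to 1881 in control libraries. By limma these genes were called higher in E0771 (adjusted p 4.7e-07 for Mkl1 and 0.031 for Mkl2) and not in B16F10 (0.86 and 0.50), so the mouse gene's reads give no check of the B16F10 labels. All 7 melanocyte markers were in the table and summed to 561637 to 757748 scaled reads in B16F10, against 369 to 636 in E0771. Of 7 mammary epithelial markers, 6 were in the table, with sums of 15156 to 17203 scaled reads in E0771 MRTFA libraries, 6027 to 9316 in MRTFB libraries and 5823 to 7903 in control libraries, so MRTFA and control libraries did not overlap. In B16F10 they summed to 82.8 to 146 with MRTFA, 13.3 to 58.1 with MRTFB and 16.4 to 27.3 in control libraries. By limma 3 of 4 tested mammary markers were higher with MRTFA in E0771 and 1 of 3 in B16F10, and their part in the channel changes was not tested. No source used here gives the strandedness of the counts. Exons of 25 members overlap another gene's exons, for 10 members those of a gene in the table, and reads of such pairs cannot be told apart. In bulk RNA, fewer cells expressing a gene and less RNA per cell cannot be told apart either.

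A gene was tested where at least 3 libraries of a fit reached 10 scaled reads, and called at an adjusted p under 0.05 (limma on log2 of scaled reads plus 1, Benjamini-Hochberg over all genes tested). With MRTFA in E0771, 13 of 25 tested members were higher and 0 were lower. Of all genes in that comparison, 20.3% were higher and 18.1% lower. The members' median log2 difference was 1.76, against −0.02 over all genes. With upper-quartile scaling 12 members were higher and 2, Kcnab2 and Kcnab3, were lower, and over all genes the split was 2464 higher and 2987 lower, in place of 2677 and 2387. A block on replicate number gave 14 members higher and 3 lower, where 3237 of all genes were higher and 3168 lower. The 3 were Kcnab2, Kcnab3 and Cacna1i, which is named for this comparison after its values were seen. With MRTFA in B16F10, 4 of 28 tested members were higher and 0 lower, where 1.34% of all genes were higher and 0.207% lower, and the medians were 0.04 and −0.01. The block gave 4 members higher there as well, where 538 of all genes were higher and 317 lower, in place of 181 and 28. With MRTFB, Kcnmb1 alone of 25 tested members was higher in E0771 (0.136% of all genes), and 0 of 28 were called in B16F10 by limma (0.126% of all genes in either direction). In B16F10 with MRTFB, 3 members had an unadjusted p under 0.05, and edgeR called 0 as well. With replicate number as a block, however, 2 of the 28 were called by limma, where 4.46% of all genes were called in either direction. Without the block, 57 of the 71 members were called in none of the 4 comparisons with control.

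The filter bears on these counts, because a gene near 0 in control cells passed it only by being high with a transgene. In E0771, 13 members had at least 10 scaled reads in every control library, and 3 of these were higher with MRTFA. Among all tested genes 20.3% were higher, but that set also holds genes low in control cells. The other 12 tested members were below 10 in at least 1 control library, and 10 of them were higher. In B16F10, 0 of the 19 members at 10 or more in every control library were called with MRTFA, and 4 of the other 9 were higher. The shares of all genes split in the same way were not computed, so these counts are not read as particular to channels. The remaining 46 members in E0771 and 43 in B16F10 were not tested. No untested member exceeded 14.6 scaled reads in any E0771 library or 18.04 in any B16F10 library. At the edge of the filter, Kcnab1 and Kcne1 lay just outside in E0771, at 9.0 and 9.96 scaled reads in the library that decides the filter. Kcng4 and Kcnj14 lay just inside at 10.4 and 11.2. In B16F10, Kcnn4 and Kcnh7 lay outside at 8.58 and 8.59, and Kcnj13 and Kcnab1 inside at 11.4 and 11.5. Without the filter all 71 members were tested, and 22 were higher and 0 lower with MRTFA in E0771, where 15.7% of all genes were higher and 11.8% lower. Likewise 7 were higher with MRTFA in B16F10 (1.35% of all genes), 0 with MRTFB in E0771 (0.0106%), and 19 were lower with MRTFB than with MRTFA in E0771 (14.5%).

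**Figure D1:**
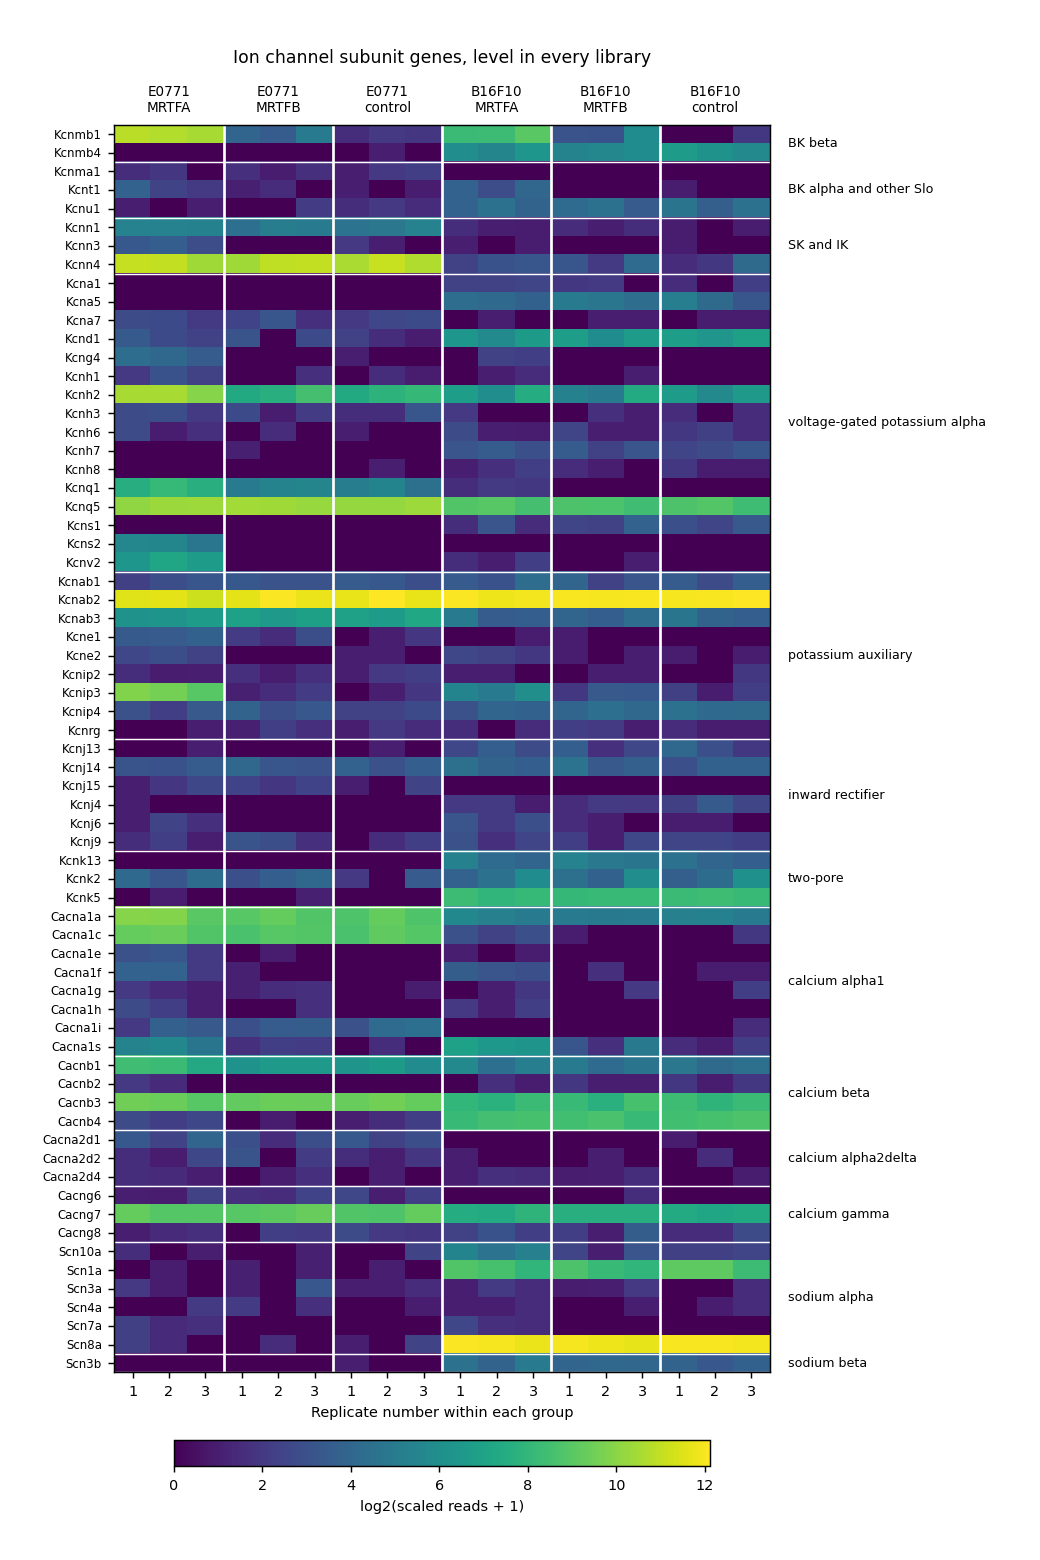
Each row is 1 of 67 of the genes, grouped by channel role, each column 1 of the 18 libraries, and colour gives log2 of scaled reads plus 1. Kcnmb1 is bright in the MRTFA libraries of both lines, Kcns2 leaves the darkest colour in E0771 MRTFA libraries alone, and Scn8a, Scn1a and Kcnk5 are bright in B16F10 only.

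The BK channel group held the member with the largest change. Kcnmb1, at chr11:33963013-33973641 on the + strand of mm10, had 1857, 1711 and 1487 scaled reads in E0771 MRTFA libraries, 14.6, 10.4 and 29.8 in MRTFB libraries, and 2.01, 3.0 and 2.80 in control libraries. The 3 groups did not overlap, with every MRTFA library above every MRTFB library and every MRTFB library above every control library. In B16F10, Kcnmb1 had 303.5, 314.5 and 517.8 scaled reads in MRTFA libraries, 7.62, 7.25 and 59.1 in MRTFB libraries, and 0, 0 and 2.86 in control libraries. These groups did not overlap either, although MRTFB replicate 3 stood well above the other MRTFB libraries.

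The log2 difference of Kcnmb1 with MRTFA was 8.87 ± 0.34 (SE, n = 3 each) in E0771, with an adjusted p of 3.5e-08 by limma. In B16F10 it was 7.87 ± 0.77 (SE, n = 3 each), with an adjusted p of 0.00047 by limma. In CPM, the ratio to control was 610 in E0771 (95% counting interval 309 to 1413, from 5129 and 8 reads). In B16F10 it was 393 (134 to 1910, from 1148 and 3 reads). Per length, Kcnmb1 was the member with the second-highest level in E0771 MRTFA cells, at 11.98 ± 1.61 RPKM (reads scaled to exon length and library size, SD, n = 3), and 78.3% of all genes lay below it. In E0771 control cells its level on that scale was 0.0196 ± 0.0040.

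The pore that Kcnmb1 modifies was almost absent. Kcnma1, the BK alpha subunit, had 18 reads in all 18 libraries together, and it is named here after its values were seen. It had 1.99, 2.79 and 0 scaled reads in E0771 MRTFA libraries, 2.25, 0.94 and 2.21 in MRTFB libraries, and 1.01, 3.0 and 3.74 in control libraries. It had 0 reads in all 9 B16F10 libraries. Per length, Kcnma1 in E0771 MRTFA cells was at 0.00279 ± 0.00249 RPKM (SD, n = 3), beside the 11.98 RPKM of Kcnmb1. Kcnmb4, the BK beta subunit known from neurons, had nearly all of its reads in B16F10, with 45.5 to 82.0 scaled reads in MRTFA, 41.9 to 58.1 in MRTFB and 51.5 to 102.9 in control libraries there. In E0771 it had 1 read in 1 control library and 0 in the other 8 libraries. Its log2 difference with MRTFA in B16F10 was −0.24 (95% interval −0.90 to 0.42) and was not called. Kcnmb1 therefore changed in libraries where its pore gene had few or no reads.

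Kcnmb1 moved with smooth muscle markers. All 7 listed markers were in the table (Acta2, Tagln, Cnn1, Myh11, Myl9, Des and Smtn) and all had reads in every group. Their sum was 738355 to 916440 scaled reads in E0771 MRTFA libraries, 67425 to 90389 in MRTFB libraries and 21945 to 27994 in control libraries. In B16F10 it was 49038 to 96882 with MRTFA, 5001 to 38491 with MRTFB and 2555 to 5273 in control libraries. All 7 were called higher with MRTFA in E0771 and 4 of 7 in B16F10. Their part in the change of Kcnmb1 was not tested.

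**Figure D2:**
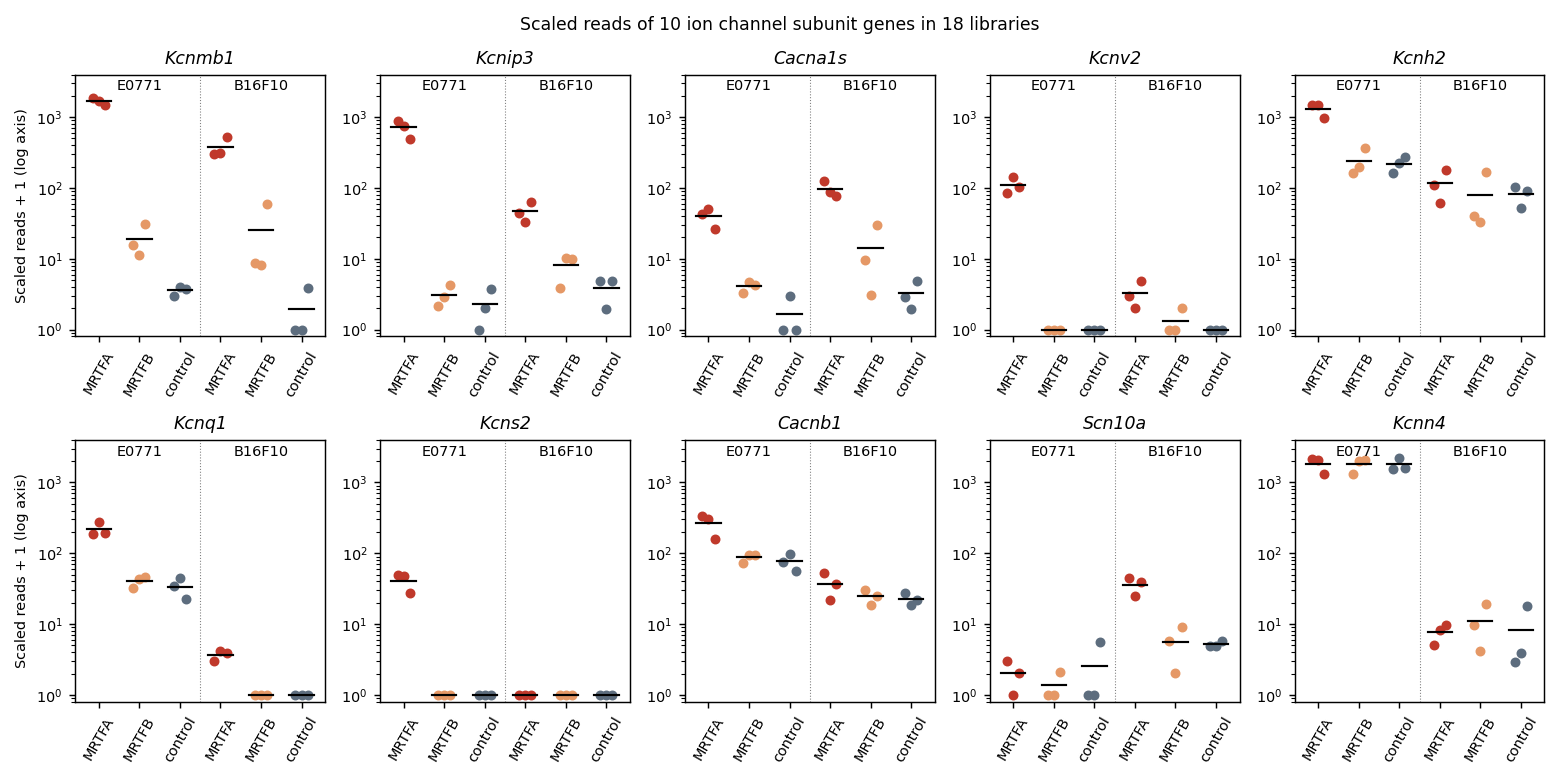
Each panel shows 1 of 10 genes, with scaled reads plus 1 on a log axis, 1 point per library and a bar at the mean of 3 libraries, for MRTFA, MRTFB and control cells of each line. Kcnmb1, Kcnip3 and Cacna1s are higher with MRTFA in both lines, Kcnv2 and Kcns2 in E0771, and Kcnn4 has means of 1795 to 1851 in the E0771 groups.

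The voltage-gated potassium alpha subunits gave the most calls. They are also the largest role group. Of 18 genes, 8 were tested with MRTFA in E0771 and 7 were higher, where 20.3% of all genes were higher. In B16F10, 4 were tested, of which 0 were called. Kcnv2, Kcns2 and Kcng4 passed the filter in E0771 only through their MRTFA libraries, so the count is partly set by the filter. Among these 7, Kcnv2, Kcns2 and Kcng4 code for silent subunits, which carry no current alone and modify the pores of other voltage-gated potassium channels. Kcnq1 and Kcnh2 form the pores of delayed rectifier currents known from heart.

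The silent subunits had no or almost no reads in E0771 control cells. Kcnv2, at chr19:27322588-27337179 on the + strand, had 82.7, 141 and 101 scaled reads in E0771 MRTFA libraries and 0 in all 3 MRTFB and all 3 control libraries. Kcns2 had 47.8, 46.4 and 26.1 in E0771 MRTFA libraries and 0 in the other 15 libraries of the series. Kcng4 had 18.9, 15.8 and 10.4 in E0771 MRTFA libraries, 0 in all 3 MRTFB libraries, and 1.01, 0 and 0 in control libraries. None of these groups overlapped between MRTFA and control. Against 3 reads over the control group, Kcnv2 was at least 105-fold higher and Kcns2 at least 39.0-fold higher with MRTFA. The ratio for Kcng4 was 43.7 (95% counting interval 7.47 to 1765, from 46 reads and 1 read). Adjusted p-values by limma were 3.0e-07 for Kcnv2, 2.4e-06 for Kcns2 and 0.00010 for Kcng4.

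Kcnh2, the pore of the rapid delayed rectifier of heart, was already present in E0771 control cells. It had 1504, 1501 and 958 scaled reads in E0771 MRTFA libraries, 162, 195 and 371 in MRTFB libraries, and 161, 224 and 270.0 in control libraries. MRTFA libraries lay above all others, and MRTFB libraries overlapped control libraries. The log2 difference with MRTFA was 2.59 ± 0.31 (SE, n = 3 each, adjusted p 9.7e-05 by limma). In B16F10 the gene had 108, 60.01 and 179 scaled reads with MRTFA and 103, 50.6 and 89.7 in control libraries. These overlapped, and the log2 difference was 0.43 (95% interval −0.90 to 1.76), which was not called.

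Kcnq1, the pore of the slow delayed rectifier of heart, had 189, 277 and 192 scaled reads in E0771 MRTFA libraries, 31.5, 42.4 and 45.2 in MRTFB libraries, and 33.2, 43.1 and 21.5 in control libraries. Only the MRTFA libraries stood apart, with a log2 difference of 2.74 ± 0.29 (SE, n = 3 each, adjusted p 3.4e-05 by limma). Its exons share 121 bases with the antisense gene Kcnq1ot1 on the opposite strand. In B16F10, Kcnq1 had 8 reads over the 3 MRTFA libraries and 0 in the MRTFB and control libraries, which is at least 2.74-fold higher with MRTFA against 3 reads over the control group. Kcnq5 was the tested alpha subunit that was not called in E0771, at 1111 to 1285 scaled reads with MRTFA and 1178 to 1313 in control libraries. Its log2 difference was −0.01 (95% interval −0.23 to 0.21).

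Among the 9 auxiliary potassium channel subunits, 3 were tested with MRTFA in E0771 and 1 was higher, and 5 were tested in B16F10 with 1 higher, the same gene in both. Kcnip3 codes for a calcium-binding protein that joins Kv4 channels and is also known as a DNA-binding repressor. It lies at chr2:127456498-127522094 on the − strand. It had 894, 758 and 497 scaled reads in E0771 MRTFA libraries, 1.13, 1.88 and 3.31 in MRTFB libraries, and 0, 1.0 and 2.80 in control libraries. In B16F10 it had 43.4, 32.1 and 62.0 with MRTFA, 2.86, 9.32 and 9.02 with MRTFB, and 3.85, 0.97 and 3.82 in control libraries. MRTFA libraries did not overlap the others in either line, and MRTFB libraries overlapped control libraries in both. The log2 difference with MRTFA was 8.47 ± 0.48 in E0771 (adjusted p 5.0e-07) and 3.66 ± 0.51 in B16F10 (adjusted p 0.0040, limma, SE, n = 3 each).

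Kcnab2 and Kcnab3, cytoplasmic beta subunits of Kv1 channels, were not called in E0771 with MRTFA. Kcnab2 had 2961, 3116 and 2362 scaled reads in MRTFA libraries and 3384, 4455 and 3347 in control libraries, with a log2 difference of −0.40 (95% interval −0.74 to −0.07) and an adjusted p of 0.057 by limma. Kcnab3 had 70.7, 77.1 and 99.3 with MRTFA and 122, 100.1 and 154 in control libraries, with a log2 difference of −0.59 (−1.09 to −0.10) and an adjusted p of 0.057 by limma. With upper-quartile scaling both were called lower, with adjusted p-values by limma of 0.026 and 0.040. A block on replicate number also called both lower (adjusted p 0.0053 and 0.014 by limma). MRTFA and control libraries did not overlap for either gene. Kcne1, the auxiliary subunit of Kcnq1 in heart, stayed under the filter, with 9.96, 10.2 and 12.5 in E0771 MRTFA libraries and 0, 1.0 and 2.80 in control libraries, and it is named here after its values were seen.

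The small- and intermediate-conductance calcium-activated, inward rectifier and 2-pore potassium channels gave 1 call with MRTFA in E0771 and 0 in B16F10. Tested in E0771 were 2 of 3, 1 of 6 and 1 of 3 genes of these groups, where 20.3% of all genes were higher. Tested in B16F10 were 0, 2 and 3, where 1.34% of all genes were higher. The call in E0771 was Kcnk2, a mechanosensitive leak channel, with 16.9, 8.36 and 18.8 scaled reads in E0771 MRTFA libraries and 3.02, 0 and 10.3 in control libraries. The groups overlapped, and the log2 difference was 2.07 ± 0.74 (SE, n = 3 each, adjusted p 0.049 by limma). The call was lost with edgeR (adjusted p 0.094) and without any 1 of 5 of the 6 libraries, the exception being control replicate 3. Kcnn4, the intermediate-conductance channel opened by calcium, had 2161, 2057 and 1335 in E0771 MRTFA libraries and 1546, 2222 and 1617 in control libraries. These overlapped, and its log2 difference was 0.03 (95% interval −0.46 to 0.53).

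Of 8 calcium alpha1 subunits, 4 were tested with MRTFA in E0771 and 1 was higher, and 2 were tested in B16F10 with 1 higher. The gene was Cacna1s in both, the alpha1 subunit of skeletal muscle, at chr1:136052750-136119822 on the + strand. It had 41.8, 49.2 and 25.1 scaled reads in E0771 MRTFA libraries, 2.25, 3.77 and 3.31 in MRTFB libraries, and 0, 2.0 and 0 in control libraries. In B16F10 it had 123, 85.9 and 77.2 with MRTFA, 8.58, 2.07 and 29.1 with MRTFB, and 1.92, 0.97 and 3.82 in control libraries. MRTFA libraries stood above all others in both lines. The log2 difference with MRTFA was 4.73 ± 0.49 in E0771 (adjusted p 3.2e-05) and 4.96 ± 0.70 in B16F10 (adjusted p 0.0043, limma, SE, n = 3 each). Without B16F10 MRTFA replicate 1, and with the filter applied again, the B16F10 difference was 4.77 with an adjusted p of 0.070 by limma, so the call was lost. Exons of Cacna1s share 1309 bases with an antisense gene on the opposite strand, so the strand of these reads is not known.

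The alpha1 subunit of heart and smooth muscle, Cacna1c, was not called in E0771. It had 604, 643 and 460 scaled reads in E0771 MRTFA libraries and 394, 577 and 488 in control libraries, with a log2 difference of 0.23 (95% interval −0.16 to 0.62). In B16F10, Cacna1c had 18 reads over the 3 MRTFA libraries and 3 over the control libraries, a ratio of 6.17 (95% counting interval 1.80 to 32.7). Cacna1a, the alpha1 subunit of presynaptic terminals, had 971, 944 and 515 with MRTFA and 444, 618 and 440.1 in control libraries of E0771. These overlapped, with a log2 difference of 0.65 (95% interval 0.12 to 1.18) and an adjusted p of 0.052 by limma.

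Of the 4 calcium beta subunits, which bring alpha1 subunits to the membrane, Cacnb1 was higher with MRTFA in E0771. It is the beta subunit that partners Cacna1s in skeletal muscle. It had 337, 308 and 158 scaled reads in MRTFA libraries, 72.0, 94.1 and 93.8 in MRTFB libraries, and 75.5, 97.1 and 56.1 in control libraries. MRTFA libraries did not overlap the rest, and the log2 difference was 1.76 ± 0.30 (SE, n = 3 each, adjusted p 0.0012 by limma). In B16F10, Cacnb1 had 51.4, 20.7 and 35.3 with MRTFA and 26.9, 17.5 and 21 in control libraries, which overlapped, and was not called. Cacnb3 was not called in either line. The 3 alpha2delta genes were tested in neither line, and of 3 gamma genes only Cacng7 was tested and it was not called.

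Of 7 sodium channel alpha subunits, 3 were tested with MRTFA in B16F10 and 1 was higher, Scn10a, known from sensory neurons. It lies at chr9:119608456-119719322 on the − strand. It had 43.4, 23.8 and 38.1 scaled reads in B16F10 MRTFA libraries, 4.77, 1.04 and 8.02 in MRTFB libraries, and 3.85, 3.89 and 4.77 in control libraries. Its log2 difference with MRTFA in B16F10 was 2.77 ± 0.51 (SE, n = 3 each, adjusted p 0.024 by limma), and in E0771 it had 3 reads in MRTFA and 5 in control libraries. The Scn10a call was lost without any 1 of 5 of the 6 libraries, the exception being control replicate 3.

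The sum of striated muscle markers was higher along with Cacna1s in E0771, while in B16F10 the sums overlapped between groups. Of 6 listed, 4 were in the table, and these summed to 339 to 1249 scaled reads in E0771 MRTFA libraries, against 36.1 to 46.3 in control libraries. In B16F10 they summed to 211 to 402 with MRTFA, 75.3 to 344 with MRTFB and 80.8 to 305 in control libraries. Of these, 3 of 3 tested were higher with MRTFA in E0771 and 2 of 4 in B16F10, and their part in the channel changes was not tested. Of 6 neuronal markers only Gap43 was in the table, at 10.3 to 11.1 scaled reads in B16F10 MRTFA libraries and 1.95 to 3.82 in control libraries there. It was tested in that comparison and not called by limma.

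Most of the members too low for the filter were not called without it either. Of those that were, the following were named after their values were seen. Cacna1f, a retinal alpha1 subunit, had 12.9, 13.0 and 3.13 scaled reads in E0771 MRTFA libraries and 0 in control libraries, at least 9.51-fold higher against 3 reads over the group. In B16F10 it had 11.1, 8.28 and 6.68 with MRTFA and 0, 0.97 and 0.95 in control libraries, and was not called there. Kcnt1, a potassium channel opened by sodium, had 13.1, 6.21 and 15.3 in B16F10 MRTFA libraries and 0.96, 0 and 0 in control libraries. In E0771 it had 12.9, 4.64 and 3.13 with MRTFA and 1.01, 0 and 0.93 in control libraries. Without the filter it was called higher in both lines (adjusted p 0.0072 in B16F10 and 0.032 in E0771 by limma). Scn7a, a sodium-sensing channel gene, had 8 reads in E0771 and 9 in B16F10 MRTFA libraries and 0 in the control libraries of both. These levels are near the limit of 3 reads per library, and the groups rest on few reads.

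**Figure D3:**
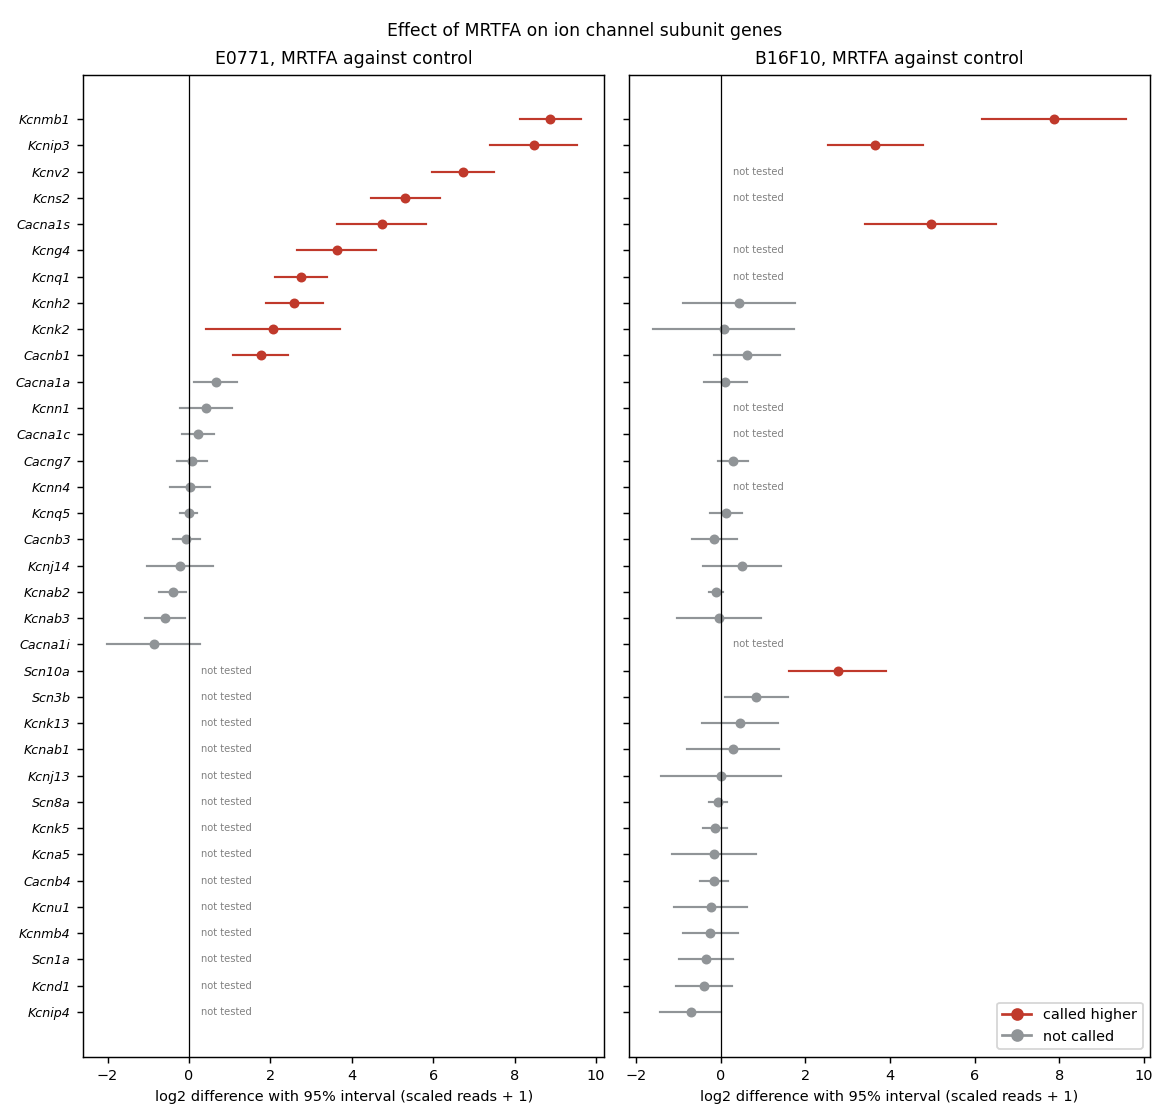
Points give the fitted log2 difference of MRTFA against control with its 95% interval for 35 genes tested in at least 1 line, E0771 on the left and B16F10 on the right. Red marks genes called higher, and the 3 called in both lines are Kcnmb1, Kcnip3 and Cacna1s.

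MRTFB gave 1 call with limma against control, Kcnmb1 in E0771. Its log2 difference was 2.30 ± 0.34 (SE, n = 3 each, adjusted p 0.031), and all 3 MRTFB libraries were above all 3 control libraries. This call was lost with edgeR (adjusted p 0.11) and without MRTFB replicate 1 or any 1 of the 3 control libraries. In B16F10 the log2 difference of Kcnmb1 with MRTFB was 3.37 ± 0.77 (SE, n = 3 each), with an adjusted p of 0.17 by limma, and again all 3 libraries lay above control. With replicate number as a block its adjusted p was 0.0026, and Scn1a, a brain sodium channel pore, was lower (log2 difference −0.54, adjusted p 0.032 by limma). These 2 calls stand beside 603 of 13517 genes called with the block and 17 without it. Without control replicate 3, the library with 2.86 scaled reads, Kcnmb1 was called at 4.02 (adjusted p 0.047 by limma).

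MRTFB and MRTFA libraries were also compared directly. In E0771, 12 of 25 tested members were lower with MRTFB than with MRTFA and 0 were higher, where 14.5% of all genes were higher and 19.1% lower. Over all genes, 1916 were higher and 2514 lower, and 2670 and 2283 with upper-quartile scaling, under which Kcnab2 was higher too (adjusted p 0.037 by limma). These 12 are the 13 genes higher with MRTFA against control, without Kcnk2. The comparisons share the MRTFA libraries, so the counts are not independent. Kcnip3 had a log2 difference of −7.87 ± 0.48, Kcnv2 −6.74 ± 0.35 and Kcnmb1 −6.57 ± 0.34 (SE, n = 3 each). In B16F10, Kcnmb1 (−4.50 ± 0.77), Scn10a (−2.89 ± 0.51) and Kcnip3 (−2.62 ± 0.51) were lower with MRTFB, 3 of 28 tested, where 1.08% of all genes were lower and 0.0148% higher. Adjusted p-values by limma were 0.019, 0.024 and 0.039. Kcnmb1 and Kcnip3 lost these calls without any 1 MRTFA library or MRTFB replicate 1 or 2, and Scn10a without MRTFA replicate 1 or 3 or MRTFB replicate 1. All 3 calls were also lost without the filter (adjusted p 0.084, 0.065 and 0.097 by limma for Kcnmb1, Scn10a and Kcnip3). The 4 of 71 members called lower there were other genes, where 214 of 18909 genes were lower. With replicate number as a block Cacna1s was lower too (log2 difference −3.30, adjusted p 0.0055 by limma).

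The size of the MRTFA effect was compared between lines in a fit of all 18 libraries. Of 41 tested members, 8 had a larger log2 difference in E0771 than in B16F10 and 2 a smaller one, where 12.6% of all genes were larger and 8.55% smaller. Larger in E0771 were Kcns2, Kcnv2 and Kcnip3, and also Kcnh2 and Kcng4, which were named for this comparison after their values were seen, by 2.09 to 5.31. Smaller were Cacna1c (−1.89) and Scn10a (−2.73), and both calls were lost without 9 of the 12 libraries taken singly. Over all genes, 1867 differences were larger and 1271 smaller, and 1669 and 1785 with upper-quartile scaling. With edgeR 3 members were called, and Kcns2, Kcnv2 and Scn10a were not (adjusted p 0.999962, 0.999962 and 0.088). Without the filter Kcng4, Kcnh2 and Scn10a lost their calls (adjusted p 0.054, 0.053 and 0.053 by limma), and with upper-quartile scaling Kcnh2 did (0.051). Kcnmb1 was not called, with a difference of 1.0 (95% interval −0.93 to 2.93, adjusted p 0.48 by limma). Its interval allows a larger effect in either line. For the MRTFB effect, limma called 0 of 41 members (0.114% of all genes), with 1 at an unadjusted p under 0.05, and edgeR called 0. The Mkl1 reads described above differed in the same way, with a log2 difference between lines of 3.12 in the MRTFA effect, and the part of transgene level in these differences was not tested.

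The channel genes used by the lines themselves were compared in control cells. E0771 and B16F10 differed in 26 of 41 tested members, 12 higher and 14 lower in E0771, where 33.4% of all genes were higher and 36.8% lower. The share of members called, 63.4%, lies near the 70.2% of all genes called in either direction, so the count says nothing particular about channels. Levels between genes are given per length, in RPKM over merged exons. Kcnab2 led both lines, at 21.1 ± 3.59 in E0771 and 24.5 ± 1.04 in B16F10 control cells (SD, n = 3 each), and 85.9% and 87.9% of all genes lay below it.

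In E0771 control cells the next levels on that per-length scale were Kcnn4 at 11.1 ± 2.31, Cacng7 at 6.49 ± 1.28, Cacnb3 at 5.20 ± 0.60 and Kcnq5 at 5.03 ± 0.33 (SD, n = 3). Cacng7 codes for a gamma subunit that also accompanies glutamate receptors. Cacng7, Cacnb3 and Kcnq5 did not differ beyond their spread. Kcnh2, Cacna1a and Kcnab3 followed at 1.42 ± 0.36, 1.38 ± 0.28 and 1.38 ± 0.30, and their spreads overlapped as well. In B16F10 control cells, Scn8a was second at 8.40 ± 0.43 and Kcnk5 next at 2.97 ± 0.15, both apart from their neighbours. Cacnb3, Cacng7, Kcnq5, Cacnb4 and Scn1a followed at 2.35, 2.13, 1.74, 1.40 and 1.39, and each overlapped the next by its spread.

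Scn8a had the largest fitted difference between the lines. This gene, a pore of neuronal axons, had 1.01, 0 and 4.67 scaled reads in E0771 control libraries and 4171, 4051 and 3902 in B16F10 control libraries, a log2 difference of −10.81 ± 0.57. Scn1a had 0, 1.0 and 0 in E0771 control libraries and 554, 548 and 312 in B16F10 control libraries, a log2 difference of −8.50 ± 0.40. Neither gene overlapped between the lines. Kcnk5, an acid-sensitive leak channel, had 0 reads in E0771 control libraries and 306, 324 and 294 scaled reads in B16F10 control libraries, at least 327-fold lower in E0771 against 3 reads over the group. Cacnb4, a beta subunit of brain, was lower in E0771 by −6.97 ± 0.32, Kcnmb4 by −5.86 ± 0.33, Kcnd1, an A-type pore, by −5.02 ± 0.61 and Kcna5, a pore of atrial muscle, by −4.22 ± 0.37 on the log2 scale (SE, n = 3 each). The other 7 lower members, Kcnk13, Scn3b, Kcnk2, Kcnj13, Kcnu1, Kcnip4 and Scn10a, had log2 differences of −4.04 to −1.53. Of the lower members, Kcnj13 shares 623 of its 1270 exon bases with Gigyf2. Cacnb4 shares 1433 of 8963 with A430018G15Rik, and Kcnmb4 and Kcnip4 also overlap a gene of the table.

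Of the 12 members higher in E0771, Cacna1c and Kcnn4 had the largest differences. Cacna1c had 394, 577 and 488 scaled reads in E0771 control libraries and 0, 0 and 2.86 in B16F10 control libraries, a log2 difference of 8.26 ± 0.43. Kcnn4 had 1546, 2222 and 1617 in E0771 and 1.92, 2.92 and 17.2 in B16F10 control libraries, a log2 difference of 8.22 ± 0.57. Kcnq1 had 33.2, 43.1 and 21.5 in E0771 and 0 in all 3 B16F10 control libraries, at least 32.3-fold higher against 3 reads over the group. No pair of groups overlapped for these genes. The other 9 higher members were Kcnn1, a small-conductance channel opened by calcium, Cacna1a, Cacna1i, a low-threshold alpha1 subunit, Kcnab3, Cacnb1, Cacng7, Kcnq5, Kcnh2 and Cacnb3, with log2 differences of 4.29 to 1.21. Kcnmb1 did not pass the test between control cells (log2 difference 1.19, adjusted p 0.11 by limma), at 2.01 to 3.0 scaled reads in E0771 and 0 to 2.86 in B16F10.

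**Figure D4:**
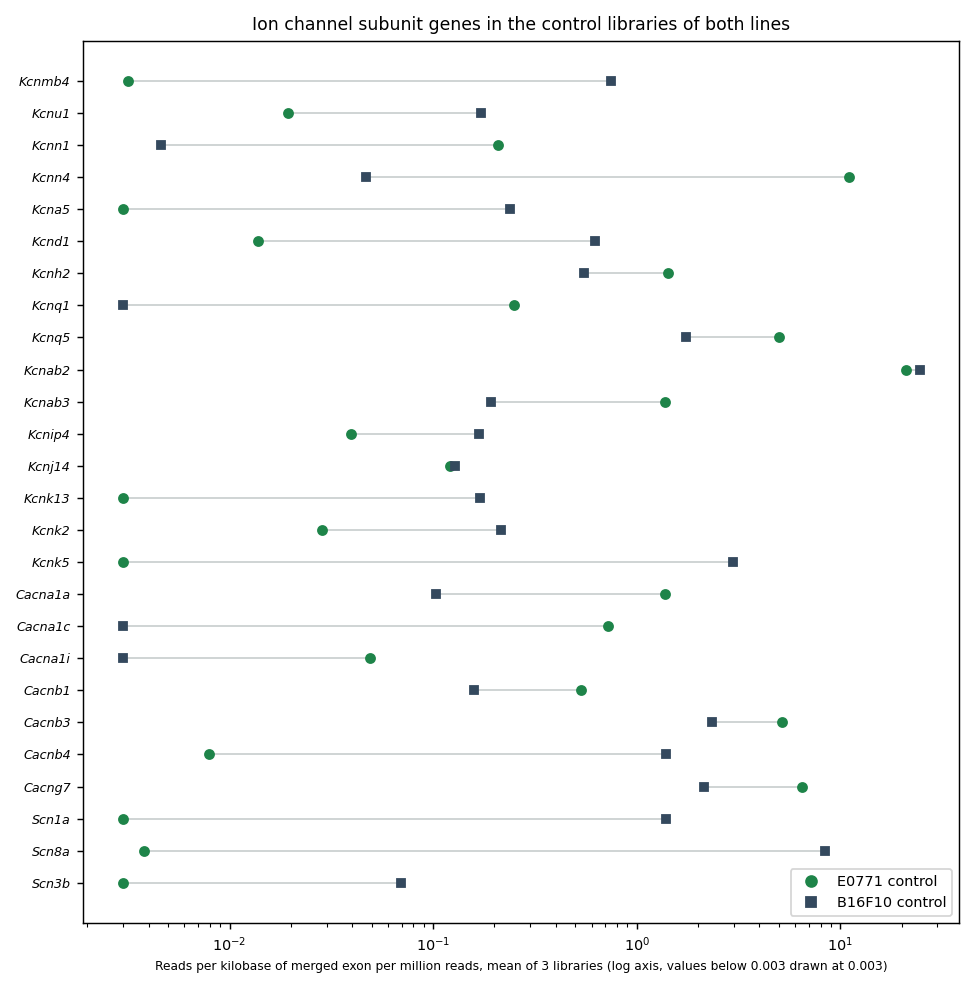
Each row is 1 of 26 genes with a mean of at least 10 scaled reads in control cells of either line, and the log axis gives RPKM, with circles for E0771 and squares for B16F10. Kcnab2 is highest in both lines, while Scn8a, Scn1a and Kcnk5 lie far to the right in B16F10 and Kcnn4 and Cacna1c in E0771.

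For some members the same replicate number was highest in every group. In B16F10, among 22 members with a mean of at least 10 in every group, replicate 1 was the highest of its group in all 3 groups for Cacnb1, Scn1a, Scn8a, Kcnk13 and Kcna5. Replicate 3 was the highest in all 3 groups for Kcnk2. It had 13.1, 21.7 and 59.1 scaled reads with MRTFA, 21, 12.4 and 60.1 with MRTFB, and 11.5, 18.5 and 67.8 in control libraries. What the replicate numbers stand for is not given in the labels.

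Other ion handling genes, from a list of 113 of which 75 were in the table, changed in both directions in E0771. With MRTFA, 24 of 59 tested were higher and 13 lower, where 20.3% of all genes were higher and 18.1% lower. In B16F10, 2 of 58 were higher and 0 lower, where 1.34% of all genes were higher and 0.207% lower. With MRTFB limma called 0 in either line, where 4 in E0771 and 7 in B16F10 had an unadjusted p under 0.05. Of the genes of calcium stores and calcium entry, 10 of 20 tested were higher and 6 lower with MRTFA in E0771. Higher were Casq2, a calcium buffer of the sarcoplasmic reticulum (log2 difference 4.19), Jph2, which ties that store to the surface membrane (4.02), and Ryr2, its release channel (3.93). Jph2 had 161 to 282 scaled reads in E0771 MRTFA libraries, against 9.06 to 17.8 in control libraries. In B16F10 it had 237 to 542 with MRTFA and 0 to 7.64 in control libraries, with a log2 difference of 6.57. Trpv2, a cation channel, was higher in both lines, by 3.89 in E0771 and 1.0 in B16F10. Pumps and exchangers were led by the calcium pump Atp2b3 (4.48) and the sodium-calcium exchanger Slc8a2 (4.22) in E0771. Lower with MRTFA in E0771 were the chloride channel Ano1 (−1.51), the magnesium channel Trpm6 (−1.37), the chloride transporter Clcn3 (−0.63), Orai3 of store-operated entry (−0.62) and the release channel Itpr3 (−0.57).

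Promoter windows were held for 50 of the 71 members, 72 windows in all, and both strands were searched. A CArG box was in 0 of the 72 member windows and in 1.63% of 32851 windows of all genes. With one G or C allowed in its core it was in 4 member windows, of Cacna1c, Kcnab1 and Kcnip3, and in 8.50% of all windows. CATTCC, the core of TEAD sites, was in 14 member windows (19.4%), among them those of Cacna1s, Kcnk2 and Scn10a of the members called with MRTFA, and in 14.7% of all windows. TATAAA was in 4 member windows and 13.6% of all windows. These windows cover 300 bases each, and a match describes letters in that window and nothing more.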

How the data were processed

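The submitters' processing notes name cutadapt 1.6, STAR 2.5.0a, HTSeq 0.5.3, DESeq and the build mm10. The deposited signal is, from its values, reads per gene divided by 1 size factor per library, and whole reads were recovered within 0.001 read for 100% of values. Gene models for lengths and coordinates were GENCODE M21, in which 18827 identifiers matched and 82 did not. Groups were compared with limma 3.58.1 (R 4.3.3, trend) on log2 of the deposited signal plus 1, within a line over 9 libraries, or over all 18 for comparisons between lines. Genes needed 10 scaled reads in 3 fitted libraries. Tests were two-sided. The fit was tested on simulated data. Alternatives were pseudocounts of 0.5 and 5, no filter or a filter of 50, TMM and upper-quartile scaling, edgeR 4.0.16 on recovered reads, a replicate block, and leaving out each library.

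Same-numbered libraries deviated together in every pair (correlation over 0.1) for B16F10 MRTFA (0.375 to 0.584) and MRTFB (0.429 to 0.499) against control, for E0771 MRTFB against control (0.525 to 0.588), and for MRTFB against MRTFA in both lines. In each of the other comparisons at least 1 pair fell below 0.1. For E0771 MRTFA against control that was replicate 1, at 0.079, while replicates 2 and 3 had 0.473 and 0.522. Some results on single genes are not reported here, although the genes stay in all counts. The members and lists were chosen with earlier results of these data known. Named by size of the difference were Kcnmb1, the called members up to 16 higher and 12 lower per comparison with control, up to 6 each way for MRTFB against MRTFA and for the differences between lines, up to 15 each way between control cells, the 8 members with the highest level per kilobase in each control group, and up to 6 other ion handling genes each way per comparison with control.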

Additional observations from a re-analysis of the deposited data

Results flagged for a closer look

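The MRTFA effect differed between the lines in a test of the difference itself (limma, Benjamini-Hochberg over all genes, log2 difference in E0771 minus that in B16F10). It was larger in E0771 for the silent subunits Kcns2 by 5.31, Kcnv2 by 5.11 and Kcng4 by 2.09. It was also larger for Kcnip3 by 4.81 and Kcnh2 by 2.16. It was smaller in E0771 for Cacna1c, at −1.89, and for Scn10a, at −2.73. With edgeR Kcns2, Kcnv2 and Scn10a were not called (adjusted p 0.999962, 0.999962 and 0.088). Without the filter on low values Kcng4, Kcnh2 and Scn10a were not called (adjusted p 0.054, 0.053 and 0.053 by limma). The calls of Cacna1c and Scn10a were lost without 9 of the 12 libraries taken singly. Kcns2 had 0 reads in every B16F10 library, so its difference rests on E0771.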

How the results depend on the processing

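Counts of members called moved by over 1.5 times under these settings. Without the filter they were 22 for MRTFA in E0771, 19 for MRTFB against MRTFA in E0771, 7 for MRTFA in B16F10 and 0 for MRTFB in E0771. With a filter of 50 they were 7, 7 and 2 for the first 3 of these, 1 for MRTFB against MRTFA in B16F10, 17 for the control cells and 5 for the difference in MRTFA effect, where fewer genes are tested. MRTFB in E0771 gave 0 with a pseudocount of 5 and with edgeR, and edgeR gave 3 for the difference in MRTFA effect. The cause was not tested. In B16F10, MRTFB against MRTFA gave 4 without the filter, and none of its 3 main calls was among these. The replicate block gave 2 of 28 for MRTFB in B16F10, where 4.46% of all genes were called in either direction. It added Cacna1s to MRTFB against MRTFA there, and where numbers pair the libraries no other count of members moved by over 1.5 times. Counts over all genes did move with the block. In B16F10 they went from 209 to 855 for MRTFA and from 148 to 359 for MRTFB against MRTFA. For MRTFB in E0771 they went from 19 to 33. Where numbers did not pair every replicate, the block gave 17 for MRTFA in E0771 and 28 for the control cells. It gave 13 for the difference in MRTFA effect and 0 for that in MRTFB effect. The 17 were 14 higher and 3 lower, Cacna1i, Kcnab2 and Kcnab3 (adjusted p 0.04999, 0.0053 and 0.014 by limma). Over all genes the block gave 3237 higher and 3168 lower in that comparison.

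Leaving out each library gave 4 to 14 calls for MRTFA in E0771, 0 to 1 for MRTFB, and 4 to 12 for MRTFB against MRTFA. The low values came from leaving out an MRTFA library, which left 17 genes tested because the filter needs 3 libraries. With the genes tested kept, an alternative chosen after seeing the data, the counts were 12 to 15 and 12 to 14. With the filter applied again, the B16F10 counts in the same order were 1 to 4, 0 to 1 and 0 to 4. With the genes kept they were 3 to 4, 0 to 1 and 0 to 4. The control cells gave 24 to 27, or 25 to 27 with the genes kept. The difference in MRTFA effect gave 2 to 9, or 6 to 10 with the genes kept. Between control cells, Kcnh2 lost its call without E0771 replicate 3 or B16F10 replicate 2, Scn10a without 5 of 6 libraries, and Kcnmb1 gained one without B16F10 replicate 3. Of 65 named member values, 48 kept their direction and side of the threshold under every setting in which the gene was tested. Settings that left a gene untested were not counted for it. Of 1328 alternative values, 0 changed direction. Depth limits members near 3 reads per library.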
